A study of Mus musculus with 12 samples.

Results

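The comparison described here is that of kidneys from PAI-1 knockout mice (KO/KID) with kidneys from wildtype mice (WT/KID), taken as 3 arrays against 3 out of a series of 12 arrays. The members were chosen by their labels alone: KO/KID replicates 1, 2 and 3 and WT/KID replicates 1, 2 and 3. The remaining arrays were 3 knockout hearts (KO/HT) and 3 wildtype hearts (WT/HT), which entered the same linear model and served as the other organ. All mice were 12 months old and of the C57BL/6 background. The knockout is global: the coding region of the PAI-1 gene and a part of its promoter are deleted in every cell, not in kidney cells alone. Each array held labelled RNA of 1 organ hybridized to an Illumina MouseWG-6 v2 BeadChip, in which each probe is read as a brightness. Per the study's methods the arrays of a group come from 3 mice, so p-values measure the spread between these mice, and the labels do not tie a heart and a kidney to the same mouse.

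PAI-1 (plasminogen activator inhibitor type 1) is a secreted serine protease inhibitor that blocks the tissue-type and urokinase-type plasminogen activators, and so limits the conversion of plasminogen to plasmin, the protease that dissolves fibrin and activates matrix-degrading enzymes. In the kidney PAI-1 is induced by TGF-beta and angiotensin II and is best known for its part in matrix accumulation after injury. The study asked which genes differ between knockout and wildtype organs in aging mice, with the kidney set beside the heart.

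Of 45281 probes, 17652 were detected above the array's background (detection p under 0.01) in 1 or more kidneys and were tested. KO/KID arrays detected 15750 to 16080 probes and WT/KID arrays 15070 to 15485, and the median signal before normalization was 93.2 to 98.6 in KO/KID and 87.5 to 95.5 in WT/KID. Kidney identity was plain from Slc34a1, which takes up phosphate in the proximal tubule and stood between 14.95 and 15.06 on the log2 scale in all 6 kidneys, and from Umod and Aqp2, while the probes of the heart muscle and adrenal cortex marker lists were detected in no kidney. A probe of the Y-linked gene Eif2s3y was detected in all 6 kidneys and none of the 4 Xist probes was. The hearts differed from the kidneys in this respect, since the same Eif2s3y probe was detected in KO/HT replicate 1 only and Xist probes in the other 5 hearts. No tested probe carries the name of the PAI-1 gene in the annotation used, so the deletion itself was not analysed here and the labels were not checked by it.

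With limma and Benjamini-Hochberg adjustment over all tested probes, 116 probes differed between genotypes at an adjusted p under 0.05, which is 0.657% of those tested. Of these, 52 rose in KO/KID (0.295% of tested probes) and 64 fell (0.363%). In each of the 116 the 3 KO/KID arrays lay wholly above or wholly below the 3 WT/KID arrays, an arrangement found in 17.8% of all tested probes. A single gene symbol belonged to 50 of them, which stand for 49 genes, 21 that rose and 28 that fell (0.474% of 10329 genes), whereas 66 carry no symbol in the annotation, although such probes make up only 13.4% of those tested. The named changes were small: the median absolute difference was 0.43 on the log2 scale, 11 of the 50 probes reached 1.5-fold and 3 reached 2-fold. Rises among named genes ran from 0.25 to 0.68 and falls from 0.26 to 1.80. By the looser criteria of the study's methods, a change of 1.5-fold or more with an unadjusted p under 0.05, the number was 113, 45 higher and 68 lower in KO/KID (0.64% of those tested). That split turned to 204 higher and 60 lower with arrays centred on their medians and to 164 higher and 141 lower with another background correction (neqc).

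**Figure D1:**
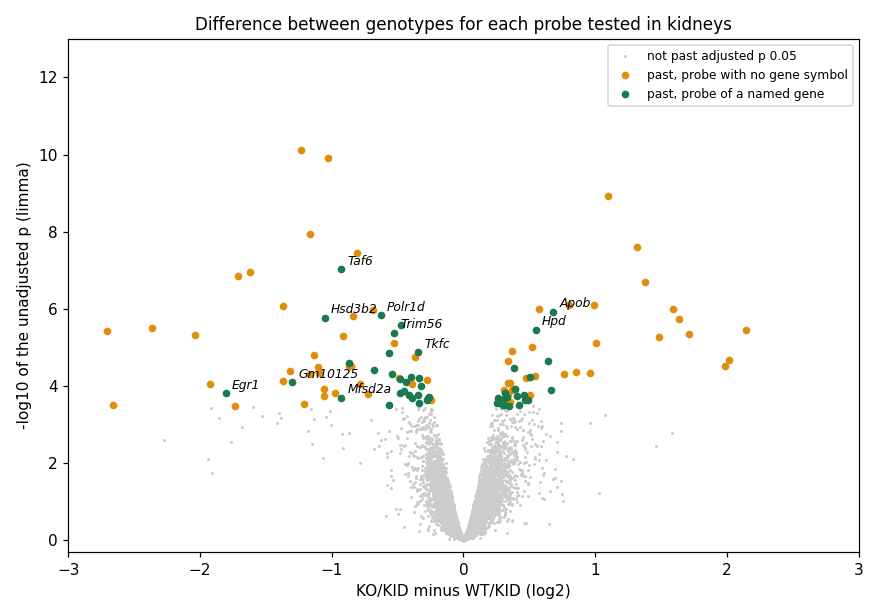
Difference between genotypes (KO/KID minus WT/KID, log2, x axis) against the unadjusted limma p on a -log10 scale (y axis) for the 17652 tested probes. Green points are the 50 probes of named genes past adjusted p 0.05, orange points the 66 past it with no gene symbol, and grey points the rest; most of the widest differences are orange.

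The count rested to a large extent on single arrays. When KO/KID replicate 2 was left out it came to 70, when KO/KID replicate 3 was left out to 66, and when WT/KID replicate 2 was left out to 61, against 93 to 143 when another kidney was left out, and 52 when the hearts were left out of the fit. In the fit without hearts 13 of the 50 named probes kept their call. A set of 42 probes, 10 of them named, passed whichever kidney was left out: the named ones were Apob, Acad10, Hpd, Tkfc, Mrps17, Trim56, Pgam2, Polr1d, Taf6 and Hsd3b2. When arrays were centred on their medians without quantile normalization, 2518 probes were higher and 91 lower in KO/KID, against the split of 52 and 64 given above. The medians used were those of all probes on the array, and the median difference of the tested probes was then 0.14. No called probe turned its direction under that scaling, with neqc or in the authors' own normalized values, but sizes and calls changed. Of the 116 calls 102 were kept with median centring, 82 with neqc and 104 in the authors' values, and 40, 51 and 43 of the 116 log2 differences changed by over 1.5 times. Of the 50 named probes 36, 23 and 44 kept their call, and 15 kept it in all 3: those of Alas1, Apob, Foxi1, Gm10125, Hpd, Hsd3b2, Kdm2b, Mid1, Mycbp2, Pgam2, Polr1d, Sumf2, Susd3, Taf6 and Trim56.

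The 12 largest rises in KO/KID are given with enzymes and transporters first. Apob, which had the largest, encodes the structural protein of very low and low density lipoproteins. Its log2 signal was 9.29, 9.43 and 9.20 in KO/KID and 8.46, 8.68 and 8.73 in WT/KID, so that the lowest knockout array lay well above the highest wildtype array (rise of 0.68, SE 0.08, adjusted p = 0.00124). Hpd, the dioxygenase that converts 4-hydroxyphenylpyruvate to homogentisate in tyrosine breakdown, read 8.83, 8.56 and 8.68 in KO/KID and 8.07, 8.21 and 8.14 in WT/KID, a rise of 0.55 (SE 0.07, adjusted p = 0.00243). Acad10, a mitochondrial member of the acyl-CoA dehydrogenase family, passed with 2 of its 3 tested probes: the stronger read 9.97, 9.88 and 10.15 in KO/KID and 9.23, 9.57 and 9.28 in WT/KID (rise of 0.64, SE 0.10, adjusted p = 0.0094), and the other read 9.91, 9.68 and 10.31 and 9.26, 9.37 and 9.26 (rise of 0.67, SE 0.12, adjusted p = 0.0284). It was the only gene with 2 called probes. The stronger kept its call whichever kidney was left out. The other lost it without KO/KID replicate 1 or WT/KID replicate 1, 2 or 3 (adjusted p up to 0.0956). With neqc neither was called (adjusted p = 0.0505 for the stronger and 0.0695 for the other). Slc22a13, a urate and nicotinate transporter of the tubule's luminal membrane, read 8.97, 9.11 and 8.85 in KO/KID and 8.41, 8.33 and 8.73 in WT/KID, where replicate 3 came close to the lowest knockout array (rise of 0.49, SE 0.09, adjusted p = 0.0401). Rida, which clears reactive imines formed by amino acid enzymes, read 11.70, 11.91 and 11.82 in KO/KID and 11.40, 11.16 and 11.48 in WT/KID (rise of 0.46, SE 0.09, adjusted p = 0.0337). Cyp2c23, an arachidonic acid epoxygenase, read 9.27, 9.26 and 9.19 in KO/KID and 8.78, 9.04 and 8.68 in WT/KID, a rise of 0.41 (SE 0.08, adjusted p = 0.0351). The calls for Apob and Hpd held whichever kidney was left out, whereas that for Slc22a13 was lost without KO/KID replicate 1, 2 or 3 or WT/KID replicate 1 or 2 (adjusted p up to 0.189), that for Rida without KO/KID replicate 2 or 3 or WT/KID replicate 1 or 2 (up to 0.142) and that for Cyp2c23 without KO/KID replicate 1, 2 or 3 or WT/KID replicate 1 or 3 (up to 0.126).

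A further 6 of the 12 largest rises among named genes had more varied roles. Ogn (osteoglycin) is a small proteoglycan of the extracellular matrix. It read 8.91, 8.93 and 8.91 in KO/KID, 3 arrays within a few hundredths of each other, and 8.46, 8.44 and 8.34 in WT/KID (rise of 0.50, SE 0.08, adjusted p = 0.0173). Nckap1, a subunit of the WAVE complex that drives actin branching, read 8.13, 8.43 and 8.41 in KO/KID and 7.87, 7.77 and 7.93 in WT/KID, a rise of 0.47 (SE 0.09, adjusted p = 0.0396). Cct3, a subunit of the cytosolic chaperonin that folds actin and tubulin, read in 1 of its 2 tested probes 8.24, 8.45 and 8.36 in KO/KID and 7.85, 7.86 and 8.07 in WT/KID (rise of 0.42, SE 0.08, adjusted p = 0.0492). In both genes KO/KID replicate 1 was the lowest knockout array. Fam120a, an RNA-binding protein, read 9.05, 9.27 and 9.20 in KO/KID and 8.77, 8.69 and 8.89 in WT/KID (rise of 0.39, SE 0.07, adjusted p = 0.0281). Fam107a, an actin-associated protein responsive to glucocorticoids, read 9.01, 8.98 and 9.06 in KO/KID and 8.64, 8.55 and 8.71 in WT/KID (rise of 0.38, SE 0.06, adjusted p = 0.0129). Zmpste24, the protease that matures lamin A, read 10.73, 10.98 and 10.73 in KO/KID and 10.51, 10.45 and 10.44 in WT/KID (rise of 0.35, SE 0.07, adjusted p = 0.0492). Each of these 6 calls was lost in at least 1 leave-one-out fit: Ogn without KO/KID replicate 2 or 3 or WT/KID replicate 2 or 3, Nckap1 without KO/KID replicate 2 or 3 or WT/KID replicate 1, 2 or 3, Cct3 without KO/KID replicate 2 or 3 or WT/KID replicate 1 or 2, Fam120a without KO/KID replicate 2 or 3 or WT/KID replicate 1 or 2, Fam107a without KO/KID replicate 3 or WT/KID replicate 2, and Zmpste24 without any 1 kidney, with adjusted p up to 0.221 for Cct3.

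The 9 remaining risen genes changed by 0.25 to 0.33. Folh1, a glutamate carboxypeptidase of the proximal tubule brush border, rose by 0.25 (adjusted p = 0.0451), and Agxt2, a mitochondrial aminotransferase that breaks down asymmetric dimethylarginine, rose by 0.28 (adjusted p = 0.0456). Foxi1, the transcription factor of acid-base transporting intercalated cells of the collecting duct, read 7.17, 7.22 and 7.14 in KO/KID and 6.91, 6.94 and 6.87 in WT/KID, a rise of 0.27 (adjusted p = 0.0401). The other tested Foxi1 probe, which was dimmer, differed by -0.02 (unadjusted p = 0.701). In whole kidney RNA, more cells of a type and more RNA per cell cannot be told apart. Ss18, a subunit of a chromatin remodelling complex, rose by 0.32 (adjusted p = 0.037), and Higd1c, a protein of the hypoxia-inducible domain family, rose by 0.30 (adjusted p = 0.0492). The other 4, Kdm2b, Sumf2, Lmtk2 and G3bp2, all lie on chromosome 5 and are given with that chromosome. The calls for Folh1, Agxt2, Foxi1 and Ss18 were each lost without any 1 kidney (adjusted p up to 0.195 for Agxt2), and that for Higd1c was lost without KO/KID replicate 1, 2 or 3 or WT/KID replicate 1 or 2.

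The falls among named genes were larger than the rises, and the largest was in Egr1, a zinc finger transcription factor induced within minutes by growth factors and stress and a known activator of matrix genes. Egr1 read 8.62, 7.94 and 8.62 in KO/KID and 9.92, 10.16 and 10.52 in WT/KID, with more than 1 log2 unit between the closest arrays of the 2 groups (fall of 1.80, SE 0.33, adjusted p = 0.0324). Gm10125, a predicted gene model, read 8.87, 9.29 and 9.67 in KO/KID and 10.22, 10.94 and 10.58 in WT/KID (fall of 1.30, SE 0.22, adjusted p = 0.0213). Hsd3b2, a 3-beta-hydroxysteroid dehydrogenase of steroid metabolism, read 10.24, 10.59 and 10.55 in KO/KID and 11.28, 11.65 and 11.59 in WT/KID, a fall of 1.05 (SE 0.12, adjusted p = 0.0015). It belongs to a family of near-identical genes, and none of its 5 other tested probes passed: they differed by 0.26 (unadjusted p = 0.0126), 0.10, 0.09, -0.09 and -0.17, so that the probes of the gene disagreed in size and sign. Mfsd2a, a carrier of lysophosphatidylcholine, read 9.11, 8.73 and 8.61 in KO/KID and 9.35, 9.68 and 10.21 in WT/KID (fall of 0.93, SE 0.18, adjusted p = 0.037). Mid1, an X-linked ubiquitin ligase of microtubules, read 6.62, 6.82 and 6.99 in KO/KID, where 2 arrays detected it, and 7.38, 7.88 and 7.79 in WT/KID (fall of 0.87, SE 0.13, adjusted p = 0.0102). The Hsd3b2 call held without any of the 6 kidneys. That for Egr1 was lost without any 1 kidney (adjusted p up to 0.134), that for Gm10125 without KO/KID replicate 1 or 2 or WT/KID replicate 2 or 3, that for Mfsd2a without KO/KID replicate 2 or 3 or WT/KID replicate 2, and that for Mid1 without WT/KID replicate 2 (up to 0.0545).

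Several enzymes and transporters fell by smaller amounts. Alas1, which catalyses the rate-limiting step of heme synthesis, read 11.95, 11.70 and 11.70 in KO/KID and 12.42, 12.26 and 12.71 in WT/KID (fall of 0.68, SE 0.11, adjusted p = 0.0139). Pgam2, the muscle form of phosphoglycerate mutase in glycolysis, read 9.75, 9.76 and 9.95 in KO/KID and 10.37, 10.52 and 10.28 in WT/KID (fall of 0.57, SE 0.08, adjusted p = 0.00666). Usp2, a deubiquitinase with daily rhythm in many tissues, read 10.86, 11.02 and 11.04 in KO/KID and 11.36, 11.54 and 11.72 in WT/KID, a fall of 0.57 (SE 0.11, adjusted p = 0.0492). Slc22a7, an organic anion transporter, read 8.73, 8.67 and 8.95 in KO/KID and 9.20, 9.28 and 9.49 in WT/KID (fall of 0.54, SE 0.09, adjusted p = 0.0156), opposite in direction to Slc22a13 of the same family. Tkfc, the kinase of dihydroxyacetone and glyceraldehyde in fructose metabolism, had the tightest groups, at 10.82, 10.84 and 10.84 in KO/KID and 11.15, 11.20 and 11.19 in WT/KID (fall of 0.34, SE 0.05, adjusted p = 0.00649). Calls for Pgam2 and Tkfc held whichever kidney was left out; that for Alas1 was lost without KO/KID replicate 2 or 3 (adjusted p up to 0.0655), that for Usp2 without KO/KID replicate 1, 2 or 3 or WT/KID replicate 2 or 3 (up to 0.188) and that for Slc22a7 without KO/KID replicate 1 or 2 or WT/KID replicate 2 (up to 0.0675).

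**Figure D2:**
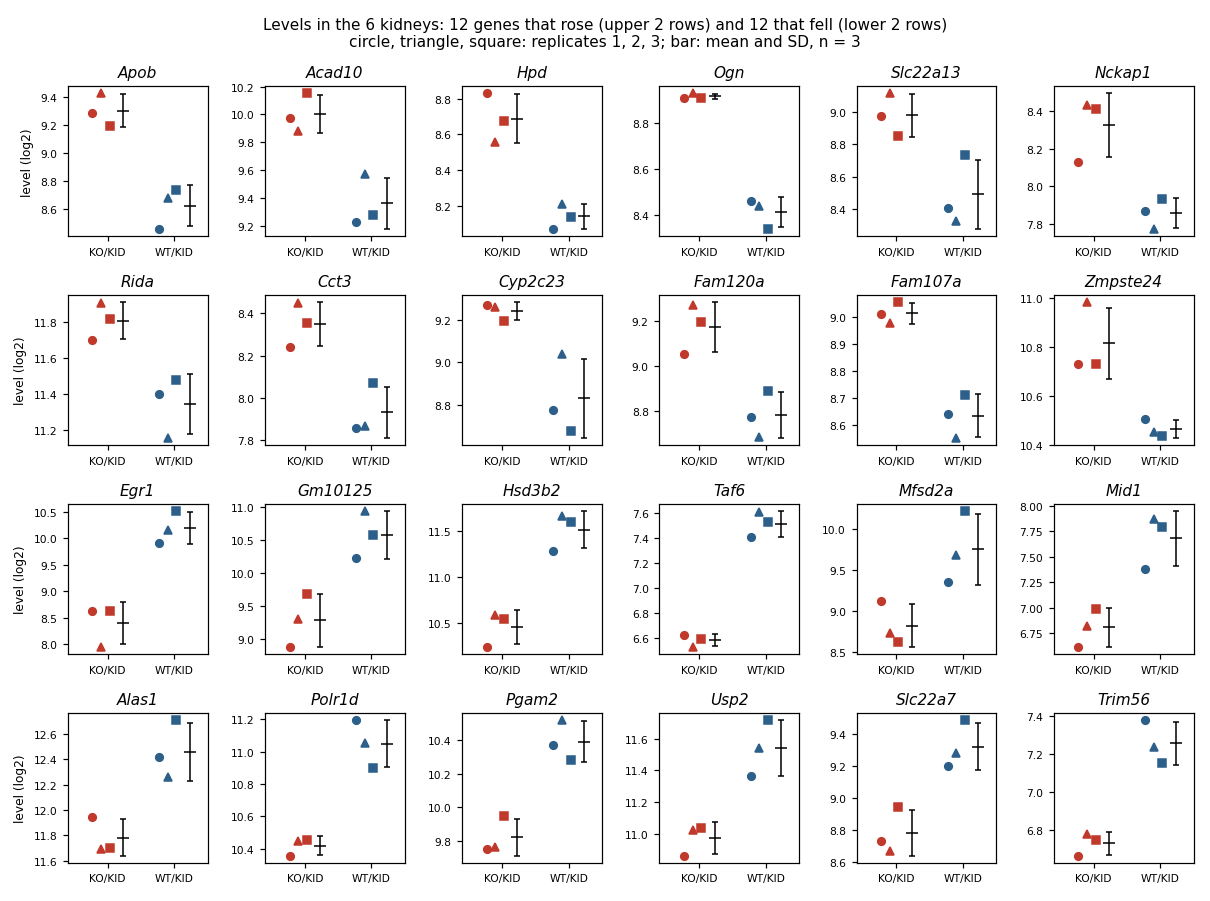
Normalized log2 signal of each of the 6 kidney arrays (red, KO/KID; blue, WT/KID; bars are mean and SD, n = 3) for the 12 named genes with the largest rises and the 12 with the largest falls. Each panel has its own range. Apob lay between 9.20 and 9.43 in KO/KID and 8.46 and 8.73 in WT/KID, and Egr1 between 7.94 and 8.62 in KO/KID and 9.92 and 10.52 in WT/KID.

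The other falls outside chromosome 5 were between 0.26 and 0.48. Keap1, the inhibitor of the antioxidant factor NRF2, fell by 0.35 (adjusted p = 0.0337), and Sdhaf1, an assembly factor of succinate dehydrogenase, fell by 0.33 (adjusted p = 0.0448). A pair of small GTPases of vesicle traffic fell, Rab27a by 0.34 (adjusted p = 0.018) and Rab5a, which marks early endosomes, by 0.27 (adjusted p = 0.0401). Terf2ip, a telomere protein, fell by 0.41 (adjusted p = 0.0337), and St6galnac2, a sialyltransferase, fell by 0.32 (adjusted p = 0.0248). Mycbp2, a ubiquitin ligase, was detected in all 3 WT/KID arrays and in no KO/KID array, and its difference of -0.26 (adjusted p = 0.0367) lay near the background of the arrays. Susd3, Nccrp1, Prr15, Scrn2 and Znrd2 fell by 0.48, 0.45, 0.40, 0.39 and 0.27. None of these 12 calls held in every leave-one-out fit; that for Rab27a was lost without KO/KID replicate 1 or 2 or WT/KID replicate 1, that for Prr15 without KO/KID replicate 1 or 3 or WT/KID replicate 2, that for Susd3 without KO/KID replicate 1 or 3 or WT/KID replicate 2 or 3 and that for Nccrp1 without KO/KID replicate 2 or 3 or WT/KID replicate 1 or 3. Sdhaf1, St6galnac2, Terf2ip, Mycbp2 and Scrn2 kept theirs in 1 of 6 such fits, and Keap1, Rab5a and Znrd2 in none (adjusted p up to 0.179 for Rab5a).

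Support from other probes of the same genes was limited. Of the 49 called genes, 25 had more than 1 tested probe. Among their 43 other probes, 29 differed in the same direction as the called probe, 10 of them at an unadjusted p under 0.05, and 1 was itself called (Acad10). The median of all tested differences was 0.00029, so either sign is about equally common overall. In 10 genes the called probe was not the brightest. Among these, the other probes of Rida (0.46, 0.23 and 0.07), Agxt2 (0.25 and 0.13), Sumf2 (0.29 and 0.10) and Sdhaf1 (-0.13) had the sign of the called one and did not pass. The other probe of Taf6, as bright as the called one, differed by -0.03 (unadjusted p = 0.615), that of Cct3 by 0.03 (unadjusted p = 0.743), that of Mycbp2 by 0.06 and that of St6galnac2 by 0.0046. The others of Keap1 differed by -0.06, 0.03 and 0.00087, and those of Rab5a by 0.30 and 0.32, opposite in sign to its called probe.

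Egr1 belongs to the immediate early genes, a group of transcription factors that need no new protein to be induced. Of 13 such factors tested, Egr1 fell and none rose. At an unadjusted p under 0.05, 4 of the 13 probes were lower and none higher (all tested probes: 5.38% lower and 5.66% higher). The median difference was -0.17, against 0.00029 over all tested probes. Junb, a component of the AP-1 factor, read 8.24, 7.77 and 8.07 in KO/KID and 8.68, 8.74 and 9.40 in WT/KID (-0.92, adjusted p = 0.167). Jun, its partner, read 7.62, 7.60 and 7.55 in KO/KID and 7.95, 8.06 and 8.17 in WT/KID (-0.47, adjusted p = 0.172), and Csrnp1 read 7.66, 7.46 and 7.52 and 7.89, 8.09 and 7.94 (-0.42, adjusted p = 0.0663). In these 3 genes, which did not pass and were chosen for small adjusted p, every knockout array lay below every wildtype array. Groups that did not overlap, in either direction, were found in 17.8% of all tested probes. Fos was detected in no KO/KID array and in all 3 WT/KID arrays, at 6.60, 6.56 and 6.62 in KO/KID and 6.89, 6.83 and 7.60 in WT/KID (-0.51, adjusted p = 0.64), with WT/KID replicate 3 well above the others.

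The feedback inhibitors that are induced alongside those factors and shut their pathways off gave a similar picture without any call. Of 22 genes tested with 31 probes, none passed, 9 probes were lower and 1 higher at an unadjusted p under 0.05, and the median was -0.06. Zfp36, which destabilizes cytokine mRNAs, read 9.62, 9.17 and 9.36 in KO/KID and 10.09, 10.36 and 10.73 in WT/KID (-1.01, adjusted p = 0.0569). Dusp1, a phosphatase that switches off MAP kinases, read 9.90, 9.63 and 9.75 in KO/KID and 10.36, 10.78 and 11.17 in WT/KID (-1.01, adjusted p = 0.0856). Bcl6, a transcriptional repressor, read 8.44, 8.68 and 8.54 in KO/KID and 10.46, 9.60 and 9.01 in WT/KID (-1.14, adjusted p = 0.0743), the wildtype arrays being far more scattered than the knockout ones. Ier3, a stress-induced survival gene, read 10.57, 10.26 and 10.86 in KO/KID and 11.30, 11.28 and 11.15 in WT/KID (-0.68, adjusted p = 0.173). Zfp36l1, a relative of Zfp36, lay the other way, at 11.77, 11.75 and 11.62 in KO/KID and 11.29, 11.49 and 11.40 in WT/KID (0.32, adjusted p = 0.0865).

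Genes of the circadian clock were also described as a group, since several kidney genes follow it. In the core loop of 13 genes tested with 23 probes none passed, 6 probes were lower and 1 higher at an unadjusted p under 0.05, and the median was -0.03. Ciart, a repressor of the clock's activators, read 6.86, 6.61 and 6.71 in KO/KID and 7.08, 7.55 and 7.43 in WT/KID (-0.63, adjusted p = 0.137). Per2 read 8.18, 7.67 and 7.80 in KO/KID and 8.12, 8.38 and 8.16 in WT/KID (-0.33, adjusted p = 0.515), and Rora, an activator of the loop, read 8.12, 8.39 and 8.22 in KO/KID and 7.91, 7.83 and 8.04 in WT/KID (0.32, adjusted p = 0.277). Of 7 output genes, Alas1 and Usp2 fell as given above and none rose. Dbp, a D-box binding output factor, read 11.20, 9.75 and 10.68 in KO/KID and 11.76, 11.70 and 11.36 in WT/KID (-1.07, adjusted p = 0.218). In hearts the clock genes lay the other way in several cases, at a difference of 0.99 for Ciart and 0.79 for Dbp, and the difference between organs passed for Ciart (adjusted p = 0.0257).

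**Figure D3:**
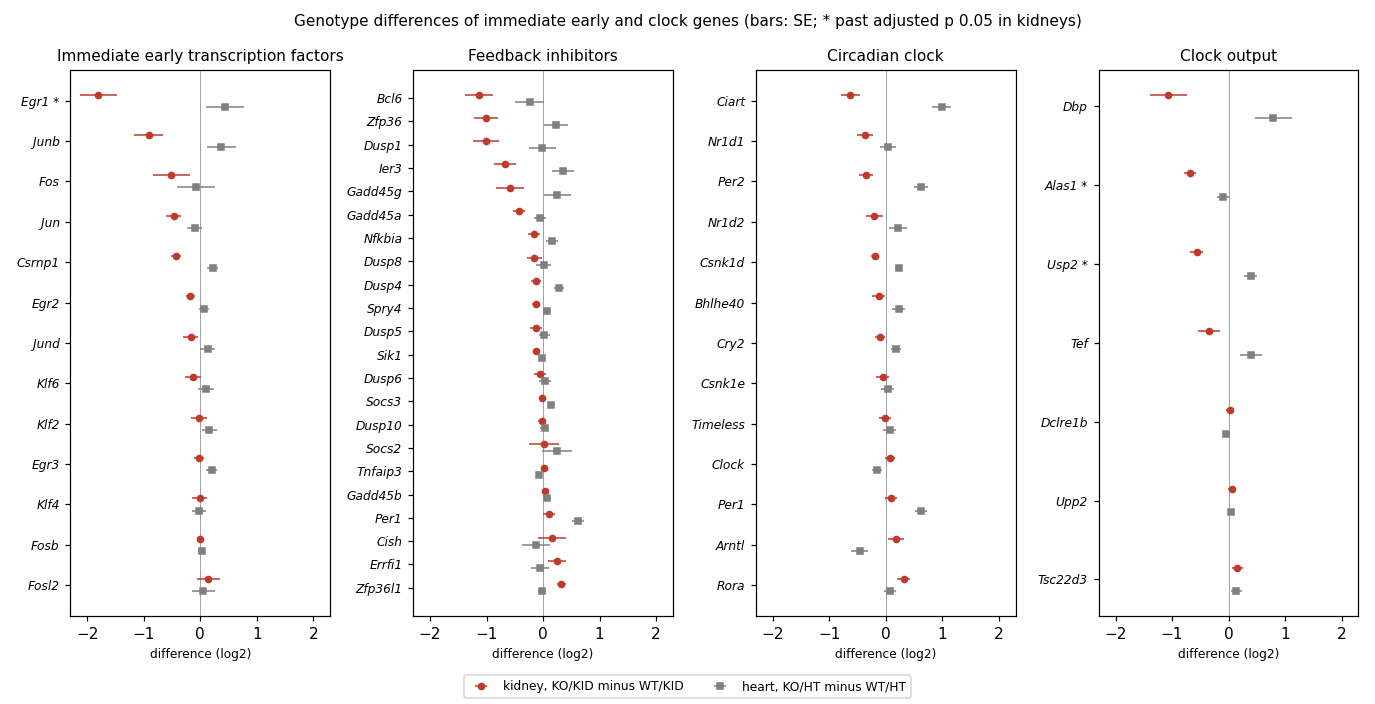
Genotype differences (log2, x axis; bars are SE) of immediate early genes, their feedback inhibitors, clock genes and clock output genes (rows), as red circles for KO/KID minus WT/KID and grey squares for KO/HT minus WT/HT. Only Egr1, Alas1 and Usp2, marked with an asterisk, passed adjusted p 0.05 in kidneys; the largest kidney falls lie at the top of each panel.

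None of Ciart, Dusp1 and Zfp36 was called in kidneys. Their promoters are shown because each holds a motif through which the group it belongs to is known to be driven. These are the E-box CACGTG bound by the clock's activators, the cyclic AMP response element TGACGTCA, and the CArG box bound by serum response factor. The windows run from 250 bases before to 50 bases after the annotated start in RefSeq's GRCm38.p6 annotation, 5′ to 3′ on the gene's strand, with the motifs in capitals.
Ciart, chr3:95882179-95882478, minus strand: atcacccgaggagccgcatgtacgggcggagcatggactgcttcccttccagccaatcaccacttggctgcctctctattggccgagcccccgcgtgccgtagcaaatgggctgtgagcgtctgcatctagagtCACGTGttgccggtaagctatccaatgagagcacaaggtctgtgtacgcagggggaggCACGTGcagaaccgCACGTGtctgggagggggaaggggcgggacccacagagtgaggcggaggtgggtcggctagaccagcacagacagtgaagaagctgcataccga
Dusp1, chr17:26508423-26508722, minus strand: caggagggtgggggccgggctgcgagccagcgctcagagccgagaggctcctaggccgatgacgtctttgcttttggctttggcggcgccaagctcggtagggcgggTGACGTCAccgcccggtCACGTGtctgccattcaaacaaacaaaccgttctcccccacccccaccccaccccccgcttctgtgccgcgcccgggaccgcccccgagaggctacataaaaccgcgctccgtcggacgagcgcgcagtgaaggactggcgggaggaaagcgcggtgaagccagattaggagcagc
Zfp36, chr7:28379179-28379478, minus strand: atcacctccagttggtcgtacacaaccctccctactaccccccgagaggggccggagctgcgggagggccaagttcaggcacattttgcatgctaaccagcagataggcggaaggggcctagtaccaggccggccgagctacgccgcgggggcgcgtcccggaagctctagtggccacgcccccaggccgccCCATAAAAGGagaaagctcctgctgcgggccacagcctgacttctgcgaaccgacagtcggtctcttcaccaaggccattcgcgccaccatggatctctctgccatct
Ciart has 3 E-boxes, beginning 116, 58 and 44 bases before the start. Dusp1 has the cyclic AMP element 143 bases and an E-box 126 bases before the start, and Zfp36 has a CArG box 58 bases before it. Searched on both strands in 32851 mouse promoters of this length, at least 1 E-box was found in 7.15%, 3 or more in 0.0883%, the cyclic AMP element in 1.79% and a CArG box in 1.63%. In the lists, an E-box was found for 2 of 10 clock core genes with a promoter (Ciart and Per1), 3 of 11 immediate early factors and 6 of 18 feedback inhibitors. Among clock output genes it was found for 1 of 7 (Tef). A gene was counted if any of its promoters had the motif, whereas the shares over all promoters count single promoters. A CArG box was found for 1 of the 11 immediate early factors (Egr2) and 2 of the 18 feedback inhibitors (Dusp5 and Zfp36), and the cyclic AMP element for 0 of the 11 and 3 of the 18 (Dusp1, Dusp8 and Errfi1). The called genes Egr1, Alas1 and Usp2 were not among the genes found with any of these motifs. A promoter was at hand for 11 of the 13 immediate early factors and for all 7 clock output genes. A match is a description of letters in a window and says nothing of binding.

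Chromosome 5, which carries the PAI-1 gene, held more called genes than any other chromosome. There, 12 of 667 tested genes passed (1.8%), against 37 of 9646 on all other chromosomes (0.384%). The next highest number was 5, on chromosome 9. Along the gene order of GRCm38.p6, 11 of the 12 lay in a stretch of 235 tested genes that runs from Acad10 to Polr1d and contains the PAI-1 gene. Counting 150 tested genes to each side of the PAI-1 gene, 11 of 274 passed (4.01%), against 1 of 393 on the rest of the chromosome (0.254%). Near the gene itself the called genes were sparse: 1 of 50 within 25 tested genes and 2 of 100 within 50. This region was picked out after the values were seen and no test was made of it.

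Of the 11 called genes of that stretch 5 rose and 6 fell. Trim56, an antiviral ubiquitin ligase, is the next protein-coding gene after the PAI-1 gene and read 6.67, 6.78 and 6.75 in KO/KID and 7.38, 7.24 and 7.15 in WT/KID (fall of 0.53, SE 0.07, adjusted p = 0.00273). Taf6, which belongs to the TFIID complex that starts transcription and lies 46 protein-coding genes on, read 6.63, 6.53 and 6.60 in KO/KID, where no array detected it, and 7.41, 7.61 and 7.53 in WT/KID, where all did (fall of 0.93, SE 0.08, adjusted p = 0.000238). Near background the size of these falls depended on the scaling: the Taf6 difference was -2.22 with neqc and -0.53 in the authors' values, and that of Trim56 -1.27 and -0.30, each called in both. Polr1d, a subunit shared by RNA polymerases I and III, read 10.35, 10.45 and 10.46 in KO/KID and 11.19, 11.05 and 10.90 in WT/KID (fall of 0.63, SE 0.07, adjusted p = 0.0014). Mrps17, a protein of the mitochondrial ribosome, read 10.35, 10.27 and 10.23 in KO/KID and 10.69, 10.80 and 10.78 in WT/KID (fall of 0.47, SE 0.06, adjusted p = 0.00209). Aacs, which activates the ketone body acetoacetate for lipid synthesis, read 10.70, 10.56 and 10.68 in KO/KID and 11.29, 10.94 and 11.15 in WT/KID (fall of 0.48, SE 0.08, adjusted p = 0.018). Daglb, a diacylglycerol lipase of endocannabinoid synthesis, read 8.28, 8.29 and 8.37 in KO/KID and 8.78, 8.76 and 8.72 in WT/KID (fall of 0.44, SE 0.08, adjusted p = 0.0213). The calls for Trim56, Taf6, Polr1d and Mrps17 held whichever kidney was left out, while that for Aacs was lost without KO/KID replicate 2 or 3 or WT/KID replicate 1 or 3 and that for Daglb without KO/KID replicate 1, 2 or 3 or WT/KID replicate 1 or 2.

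Beside Acad10 and Hpd, the risen genes of chromosome 5 were Kdm2b, a histone demethylase (0.33, adjusted p = 0.0367), Sumf2, a relative of the sulfatase-activating enzyme (0.32, adjusted p = 0.0324), Lmtk2, a membrane kinase (0.31, adjusted p = 0.0492), and G3bp2, a stress granule protein that lies outside the stretch (0.26, adjusted p = 0.0368). Kdm2b and Lmtk2 lost their calls without any 1 kidney, Sumf2 without KO/KID replicate 2 or 3 or WT/KID replicate 1, 2 or 3, and G3bp2 without KO/KID replicate 2 or 3 or WT/KID replicate 1, 2 or 3. Genes between them that did not pass could differ as widely: Cldn15, a tight junction protein 4 tested genes before the PAI-1 gene, differed by -0.70 (adjusted p = 0.0753), and Actb, the cytoplasmic actin often used as a loading control, by -0.53 (adjusted p = 0.351).

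The hearts were normalized together with the kidneys, and their spread enters the error behind each kidney call. They showed the same direction in 12 of the 13 called probes of chromosome 5, against 17 of the 37 called named probes elsewhere. Their heart differences were small in most cases: 3 of the 13 had an unadjusted p under 0.05 in hearts, against 5 of the 37 and 7.41% of all tested probes. Those 3 were Taf6, which read 6.82, 6.60 and 6.74 in KO/HT and 8.05, 7.84 and 7.78 in WT/HT (fall of 1.17, SE 0.08, adjusted p = 4.05e-05), Trim56, which read 6.67, 6.69 and 6.73 in KO/HT and 7.10, 7.22 and 7.25 in WT/HT (fall of 0.49, SE 0.07, adjusted p = 0.0218), and Polr1d, with a heart difference of -0.34 (SE 0.07, adjusted p = 0.184). Without KO/HT replicate 1, the only heart with the Eif2s3y probe detected, 11 of the 13 kept the direction and again 3 had an unadjusted p under 0.05.

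**Figure D4:**
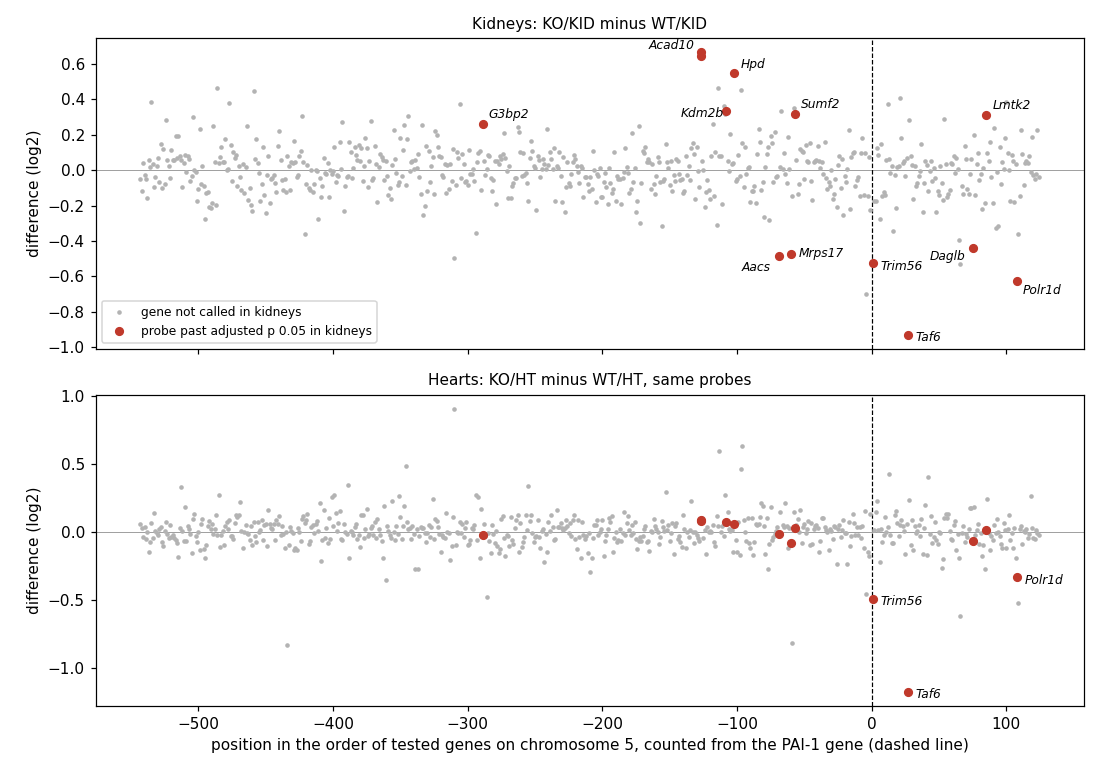
Genotype difference (log2, y axis) of each tested gene on chromosome 5 in gene order from the PAI-1 gene (x axis, dashed line at 0), in kidneys (top) and in hearts for the same probes (bottom). Red points passed adjusted p 0.05 in kidneys; 11 of the 12 such genes lie in one stretch around the line, and Taf6 and Trim56 are low in both organs.

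The genes through which PAI-1 acts showed no call. Of 11 genes of the plasminogen activation system tested with 14 probes, none passed, none had an unadjusted p under 0.05, and the median difference was -0.04. Plat, the tissue-type activator that PAI-1 inhibits, read 8.71, 9.12 and 9.07 in KO/KID and 8.39, 8.36 and 9.07 in WT/KID (0.36, adjusted p = 0.523), and Plau, the urokinase-type activator, read 10.72, 10.86 and 10.53 in KO/KID and 10.86, 10.05 and 10.56 in WT/KID (0.22, adjusted p = 0.68). In both the groups overlapped.

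TGF-beta signaling and matrix genes were nearly level between genotypes. Of 18 TGF-beta pathway genes none passed, with 1 of 29 probes higher and 1 lower at an unadjusted p under 0.05 and a median of 0.05. Tgfbr2, the ligand-binding receptor, read 9.93, 10.10 and 9.99 in KO/KID and 9.69, 9.53 and 9.90 in WT/KID (0.30, adjusted p = 0.291), and Smurf1, which targets the pathway's proteins for degradation, differed by -0.18 (adjusted p = 0.314). Of 31 collagen and matrix genes Ogn rose and none fell, and the median of their 48 probes was 0.0021. Col4a3, a basement membrane collagen chain, read 7.40, 7.80 and 7.39 in KO/KID and 7.07, 7.05 and 7.24 in WT/KID (0.41, adjusted p = 0.0943), while its partner chain Col4a4 differed by -0.16 (adjusted p = 0.368) and the small proteoglycan Dcn by 0.24 (adjusted p = 0.536). Of 15 metalloproteinases and their inhibitors none passed and none of 21 probes had an unadjusted p under 0.05 (median -0.02). Timp3, an inhibitor bound to the matrix, differed by 0.04 (adjusted p = 0.969). Of 15 kidney injury genes none passed, with a median of 0.06; the fibrinogen chain Fgg differed by 0.30 (adjusted p = 0.314), the keratin Krt8 by -0.17 (adjusted p = 0.342) and vimentin (Vim) by 0.17 (adjusted p = 0.618). Of 8 renin-angiotensin genes none passed: the peptidase Mme differed by 0.33 (adjusted p = 0.17) and the angiotensin-(1-7) receptor Mas1 by -0.24 (adjusted p = 0.206).

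The metabolic lists each held 1 or 2 of the called genes. At an unadjusted p under 0.05, against which their counts are set, 5.66% of all tested probes were higher and 5.38% lower. In fatty acid oxidation Acad10 alone of 23 genes rose, with 6 of 39 probes higher and 2 lower at an unadjusted p under 0.05; Acot1, an acyl-CoA thioesterase, differed by 0.14 (adjusted p = 0.897). In tyrosine and phenylalanine breakdown Hpd alone of 6 genes rose, while Hgd, which acts on its product, lay at 12.39, 12.39 and 12.42 in KO/KID and 12.55, 12.51 and 12.54 in WT/KID (-0.13, adjusted p = 0.25). In lipoprotein and lipid handling, of 15 genes Apob rose and Mfsd2a fell; Apom differed by 0.13 (adjusted p = 0.676) and Lpl by 0.18 (adjusted p = 0.61). In heme synthesis and breakdown Alas1 alone of 12 genes fell, and among 13 steroid dehydrogenases Hsd3b2 alone fell, with 3 of 25 probes higher and 3 lower at an unadjusted p under 0.05. Of 18 organic ion transporters Slc22a13 rose and Slc22a7 fell, with 7 of 28 probes higher and 2 lower at an unadjusted p under 0.05. Abcc4, an efflux pump for cyclic nucleotides and anionic drugs, narrowly missed the threshold at 9.00, 8.86 and 9.06 in KO/KID and 8.21, 8.38 and 8.73 in WT/KID (0.53, adjusted p = 0.051).

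Immune and stress lists held no call. Of 19 interferon-stimulated genes none passed, although 20 of 25 probes were positive (median 0.07), and of 10 MHC class II genes none passed, with 14 of 16 probes positive (median 0.08). Among 12 MHC class I genes, B2m, the light chain, read 11.87, 11.99 and 11.85 in KO/KID and 11.52, 11.32 and 11.72 in WT/KID (0.38, adjusted p = 0.077), and H2-D1 differed by 0.32 (adjusted p = 0.271). Of 14 cytosolic heat shock genes none passed; Hsp90aa1 read 8.12, 8.26 and 8.23 in KO/KID and 7.71, 7.44 and 7.79 in WT/KID (0.56, adjusted p = 0.162). Of 15 unfolded protein response genes none passed, Sdf2l1 differing by 0.35 (adjusted p = 0.196) and Herpud1 by -0.27 (adjusted p = 0.309). Among 14 genes of senescence and cell cycle arrest, for which PAI-1 itself is a known marker, Ccnd1 (cyclin D1) read 11.77, 11.32 and 11.63 in KO/KID and 12.07, 12.05 and 11.98 in WT/KID (-0.46, adjusted p = 0.0535), and Igfbp3 read 10.50, 10.49 and 10.36 in KO/KID and 10.23, 10.13 and 10.21 in WT/KID (0.26, adjusted p = 0.466).

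**Figure D5:**
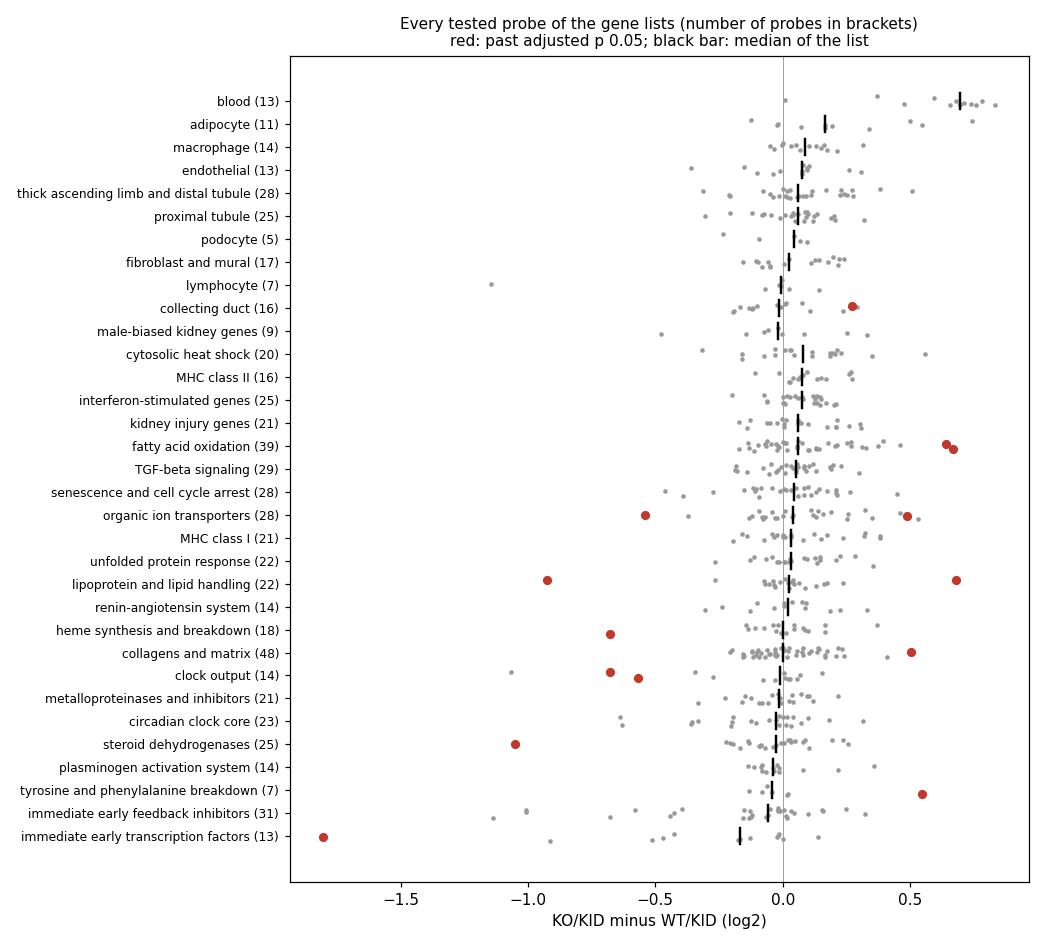
Difference between genotypes (KO/KID minus WT/KID, log2, x axis) of every tested probe in each gene list (rows), with the list's median as a black bar and called probes in red. The median of the blood list stands at 0.69 and those of the others between -0.17 and 0.17.

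Markers of nephron segments gave 1 call. Foxi1 was the only gene of the 12 collecting duct markers to pass, in 1 of its 2 probes, and Scnn1a, a sodium channel subunit of principal cells, differed by -0.19 (adjusted p = 0.117). Of 17 proximal tubule markers none passed (median 0.06), and their summed linear signal was 168152 to 170524 in KO/KID and 163149 to 165346 in WT/KID. Of 12 thick ascending limb and distal tubule markers none passed (smallest adjusted p = 0.0978). At an unadjusted p under 0.05, 8 of 28 probes were higher and 3 lower, and differences over the 28 ran from -0.31 to 0.51. The sodium, potassium and chloride carrier Slc12a1 is given by its brightest probe. It read 12.14, 12.51 and 12.13 in KO/KID and 12.11, 12.10 and 12.34 in WT/KID (0.08, adjusted p = 0.851). The thiazide-sensitive transporter Slc12a3 differed by -0.21 (adjusted p = 0.191). Of 5 podocyte markers none passed, Podxl differing by -0.24 (adjusted p = 0.536). Of 11 endothelial markers none passed; Flt1, a VEGF receptor whose gene is the next tested one after Polr1d on chromosome 5, differed by -0.36 (adjusted p = 0.105) and Pecam1 by 0.26 (adjusted p = 0.25). No macrophage (11 genes) or fibroblast and mural marker (11 genes) passed, the smallest adjusted p being 0.515 for macrophages and 0.387 for fibroblasts.

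No blood cell marker passed, although all 13 tested probes of the blood list (5 genes of 11 listed) had a positive difference, 7 of them at an unadjusted p under 0.05 (smallest adjusted p = 0.209), with a median of 0.69. Their summed linear signal was 93051 to 130737 in KO/KID and 58873 to 77615 in WT/KID, without overlap. Hbb-bt, an adult beta globin, read 13.97, 13.71 and 13.55 in KO/KID and 12.85, 13.22 and 12.81 in WT/KID (0.78, adjusted p = 0.209), and Hba-a1, an alpha globin, read 13.93, 13.08 and 13.49 in KO/KID and 12.79, 13.13 and 12.79 in WT/KID (0.59, adjusted p = 0.526), where the groups overlapped. The globin probes share sequence and are not independent. Adipocyte markers, tested for 10 genes with 11 probes, summed to 6824 to 7850 in KO/KID and 4543 to 6690 in WT/KID (median difference 0.17, 3 probes higher at an unadjusted p under 0.05, none called). Cidea, a lipid droplet protein of fat cells, read 6.99, 8.28 and 8.52 in KO/KID and 6.99, 6.62 and 7.95 in WT/KID (0.75, adjusted p = 0.486). The part of blood or fat around the organ in the genotype differences given above was not tested.

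From the study's main list of kidney genes, with beta globin under each of its current symbols, 15 genes were tested here, and Acad10 and Egr1 were called. Prlr and Zfp68, which have the smallest p-values in that list, are not among the 15 and were not analysed here. Hsd3b2 is not on that list, although the study names it in a functional group. The list was chosen by the study on these same samples, so its count is not independent evidence of a direction. Dnase1, a secreted nuclease abundant in kidney, missed the threshold at 12.22, 12.70 and 12.27 in KO/KID and 11.99, 11.63 and 11.86 in WT/KID (0.57, adjusted p = 0.0535). Aldh8a1, an aldehyde dehydrogenase of retinoid and tryptophan metabolism, read 9.67, 10.53 and 9.82 in KO/KID and 9.39, 9.23 and 9.44 in WT/KID (0.65, adjusted p = 0.122). Mvp, the major vault protein, read 7.18, 6.92 and 8.84 in KO/KID and 9.60, 9.49 and 9.56 in WT/KID, a wide but uneven difference (-1.91, adjusted p = 0.306). Prf1, the perforin of cytotoxic lymphocytes, read 7.04, 7.14 and 7.89 in KO/KID and 7.71, 9.29 and 8.50 in WT/KID (-1.15, adjusted p = 0.151), with KO/KID replicate 3 above WT/KID replicate 1. Chka, a choline kinase, read 6.87, 6.66 and 6.75 in KO/KID and 6.75, 6.57 and 6.79 in WT/KID, with overlapping groups (0.06, adjusted p = 0.832).

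Probes without a gene symbol made up most of the calls and had the widest differences. Of 2370 tested, 66 passed (2.78%), 30 higher and 36 lower, against 50 of 15274 with 1 symbol (0.327%). Their median absolute difference was 0.98, and 46 of the 66 reached 1.5-fold and 32 reached 2-fold. Their identity is not given by the annotation used, so no gene or process is attached to them here. The strongest rise by size was at ILMN_2633179, which read 10.80, 10.55 and 10.08 in KO/KID and 9.01, 7.86 and 8.11 in WT/KID (2.15, adjusted p = 0.00243), and the next at ILMN_2744660, which read 10.56, 10.41 and 11.25 in KO/KID and 8.30, 8.63 and 9.24 in WT/KID (2.02, adjusted p = 0.0094). In the fallen set KO/KID replicate 1 was the lowest of the 3 knockout arrays in 31 of 36 probes and the highest in none, where 34.6% of all tested probes without a symbol had that array lowest. Among the 30 risen ones it was lowest in 19. Of the fallen probes 22 were still detected in all 3 KO/KID arrays and 3 in none, and of the risen ones 8 were detected in no WT/KID array.

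Few of the kidney calls were also calls in hearts, where few probes passed at all. Of the 116 called probes 4 were called in hearts as well (10 of all 17652 tested probes, 0.0567%): Taf6, Trim56 and 2 probes with no symbol, all lower in the knockout in both organs. ILMN_2455192 read 6.55, 6.48 and 6.57 in KO/KID and 7.78, 7.71 and 7.81 in WT/KID (kidney difference -1.23, heart difference -1.91), and ILMN_2449449 read 6.72, 6.76 and 6.71 in KO/KID and 7.71, 7.84 and 7.72 in WT/KID (kidney difference -1.03, heart difference -1.30). The same 4 were called in hearts without KO/HT replicate 1. Heart differences had the same sign as kidney ones in 64 of the 116 probes and in 29 of the 50 named ones. Among the named, 12 of the 50 were detected in no heart, as were 27 of the probes with no symbol. The difference between organs itself passed for 16 of the 116 (19 of all tested probes, 0.108%), 14 of them with no symbol and 2 named, Apob and Hsd3b2. Without KO/HT replicate 1 it passed for 13, and not for Apob (adjusted p = 0.0513) or Hsd3b2 (adjusted p = 0.0606). The other hearts had Xist detected and the kidneys had not, so organ and sex transcripts cannot be told apart in this comparison. Of the 16, 8 were detected in no heart, Apob among them, so that for these the difference between organs repeats the kidney difference. For Egr1 the heart difference was 0.43 against -1.80 in kidneys, and the difference between organs did not pass (adjusted p = 0.132).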

How the data were processed

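RNA from kidneys and hearts of PAI-1 knockout and wildtype mice was labelled as biotinylated cRNA and hybridized to Illumina MouseWG-6 v2 BeadChips, 12 arrays in all and 3 per group. The authors deposited, for each array, a non-normalized probe intensity and a detection p-value, and a further table of normalized intensity made with lumi (version not given in the sources used here) and quantile normalization. The deposited detection p-value gives the chance that background alone reaches a probe's signal. Precision was limited by the number of arrays.

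Intensities of the 12 arrays were quantile normalized together and taken to log2 without background subtraction. Probes with a detection p under 0.01 in 1 or more kidneys were tested with limma 3.58.1 (R 4.3.3, lmFit and eBayes, 4 group means, 8 residual degrees of freedom), two-sided, with Benjamini-Hochberg adjustment over 17652 probes and a threshold of 0.05. All differences are log2, KO minus WT, and all adjusted p are from this fit. The fit was tested on simulated data.

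Gene symbols came from GEO's platform annotation, updated through RefSeq: 15274 tested probes had 1 symbol, 8 several and 2370 none. All called genes are accounted for. Values are given for the 12 largest rises and 12 largest falls and for the tested genes of the paper's main list for kidneys. They are also given for up to 4 members of each list with small adjusted p. An uncalled gene is given by its tested probe of highest mean, which need not be its probe with the small adjusted p. The members and gene lists were chosen with earlier results of these data known. Genes with no probe under their name in this annotation were not analysed here. Gene order and promoters are those of RefSeq GRCm38.p6, and the files name no genome build. Alternatives were another background correction (neqc, offset 16), centring on the median, the authors' values, other detection filters, other samples or covariates, the methods' t-test, other moderation, and single arrays left out; leaving out KO/HT replicate 1 was added after seeing the data. List results not given in the report are that no male-biased (7 genes), female-biased (3), adrenal medulla (2), lymphocyte (6) or sex chromosome (3) gene passed.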

Additional observations from a re-analysis of the deposited data

Results flagged for a closer look

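The effect of genotype differed between kidneys and hearts for 5 named probes of 4 genes in a limma test of that difference, adjusted over all tested probes; 19 of 17652 probes passed in all. Ciart differed in hearts minus kidneys by 1.62 (adjusted p = 0.0257) and, in another probe, by 1.67 (adjusted p = 0.0312): the first read 6.86, 6.61 and 6.71 in KO/KID and 7.08, 7.55 and 7.43 in WT/KID, against 7.55, 8.07 and 8.29 in KO/HT and 7.01, 7.06 and 6.88 in WT/HT. Hsd3b2 differed between organs by 1.11 (adjusted p = 0.0339) and Apob by -0.71 (adjusted p = 0.0312); Apob was detected in no heart, where it read 6.51, 6.49 and 6.46 in KO/HT and 6.49, 6.53 and 6.54 in WT/HT. Haghl, a relative of hydroxyacylglutathione hydrolase, differed by 0.60 (adjusted p = 0.0472): it averaged 9.16 ± 0.08 in KO/KID and 9.41 ± 0.05 in WT/KID, and 8.77 ± 0.11 in KO/HT and 8.43 ± 0.07 in WT/HT (SD, n = 3 each).

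KO/HT replicate 1 was the only heart in which the Y-linked Eif2s3y probe was detected. A probe of another Y-linked gene, Uty, lay near background and was detected in 2 KO/HT and 1 WT/HT arrays. A probe of a further Y-linked gene, Kdm5d, was detected in 1 KO/HT array and no WT/HT array. This Kdm5d probe read 7.05 in KO/HT replicate 1 and 6.44 to 6.52 in the other hearts. In kidneys it was detected in 3 KO/KID arrays and 1 WT/KID array. The other Kdm5d probe was detected in no array. Without KO/HT replicate 1 the difference between organs was 1.83 and 1.90 for the 2 Ciart probes (adjusted p = 0.00291 for both). It no longer passed for Apob (adjusted p = 0.0513), Hsd3b2 (adjusted p = 0.0606) and Haghl (adjusted p = 0.0883). The 5 remaining hearts had Xist detected and the 6 kidneys had not, so that for these genes organ and sex transcripts cannot be told apart.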

How the results depend on the processing

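The count of 116 calls was 52 when only the 6 kidneys were fitted, 59 with replicate 1 set against 2 and 3, 3 by the methods' t-test (1763 probes at its unadjusted threshold) and 2609 with arrays centred on their medians (2518 higher, 91 lower). Other background corrections, filters, moderation and the authors' values gave 108 to 156. Leaving out 1 array gave 61 to 143. The count by unadjusted p and 1.5-fold, 113 in the report, was 305 with neqc, 264 with median centring, 82 in the authors' values and 100 to 155 with 1 array left out. The number of probes whose genotype difference passed between organs, 19 in the report, was 29 with neqc, 10 in the authors' values, 17 with median centring and 19 without KO/HT replicate 1. The kidney calls also called in hearts numbered 3 to 6 in these settings, the only ones in which they were counted. Of 741 recomputed values of 39 named probes, 545 kept direction and side of the threshold, 179 lost it, 16 gained it and 1 turned: Chka, uncalled, ranged from -0.0074 without WT/KID replicate 2 to 0.11 with another array left out. None of the 25 called named probes among them passed under every alternative. The cause of these changes was not tested.

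With the replicate number as a block, 43 probes passed, 35 of them among the 116. Deviations of same-numbered KO/KID and WT/KID arrays correlated at 0.20, -0.21 and -0.02. Those of differently numbered arrays correlated at -0.25 to 0.24. Whether the numbers pair the samples was not tested.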
